A study of Mus musculus with 39 samples.

Results

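Dendritic cells (DC) of the lymph node were compared between 12 h and 24 h after mice had been given nanoparticles that carried ovalbumin (OVA) together with CpG. The comparison took every library labelled OVA_CpG_NP at 12h or 24h in the time course, which gave 4 of the 39 samples of the series, 2 at each time. All 4 came from wild-type C57BL/6 mice aged 8 to 12 weeks, immunized under the skin of the hock, and the cells were sorted from popliteal and inguinal nodes after DC had been enriched by negative selection. The series set out to follow how DC respond when they meet T cells, in mice given OT-I and OT-II cells (CD8 and CD4 T cells with receptors for OVA) and particles that also held a rhodamine dye. The labels of these samples do not say whether each mouse carried such T cells, whether several mice were pooled, or whether the sort took only cells that held particles. Beside them stood 2 libraries from non-immunized mice, 2 taken at 12 h and 2 at 24 h after particles labelled CpG_NP, called CpG-only here. These 6 libraries differed from the OVA libraries in treatment and shared their strain, genotype and tissue.

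CpG DNA is a ligand of Toll-like receptor 9, which signals through the adaptor Myd88 to the NF-kB transcription factors and to the interferon regulatory factors. A DC that has sensed such a ligand moves through an early phase, with inflammatory cytokines, chemokines and interferon-stimulated genes, into a mature phase in which it lowers its uptake of antigen, raises the chemokine receptor Ccr7 and the actin bundler Fscn1, and presents antigen to T cells. In the lymph node T cells in turn signal back to the DC through Cd40 and through interferon-gamma. A sort of lymph node DC can also hold monocyte-derived cells, which share surface markers with DC.

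The 4 OVA libraries held between 733829 and 1228576 counts, and the 10 libraries of the time course between 612017 and 1329203. Levels are given as CPM, the count of a gene scaled to the library's total. Whether replicates are separate animals is not in the labels, and p-values here then cover only the spread among these samples, which may be technical. Markers of conventional DC were present in all 4 OVA libraries, with summed levels of 10 genes at 4163 and 4391 CPM at 12 h and 7730 and 7456 CPM at 24 h. T cell markers were present as well, at 4196 and 4043 CPM for the 21 genes found in the table at 12 h and 4211 and 4778 CPM at 24 h. Of 20 tested T cell markers edgeR called none over time (3 higher and 1 lower at an unadjusted p under 0.05), and DESeq2 none. Of the 12 stromal and endothelial markers 6 had no count in any OVA library, and only 1 was tested. The 24 h libraries differed from each other in neutrophil markers, whose 14 genes summed to 454 CPM in OVA 24 h replicate 1 and 2649 CPM in OVA 24 h replicate 2. At 12 h they summed to 2608 and 2576 CPM, near OVA 24 h replicate 2. In bulk samples a change in the number of cells of a type and a change in RNA per cell cannot be told apart. The plot of summed marker levels shows these values for all 10 libraries.

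**Figure D1:**
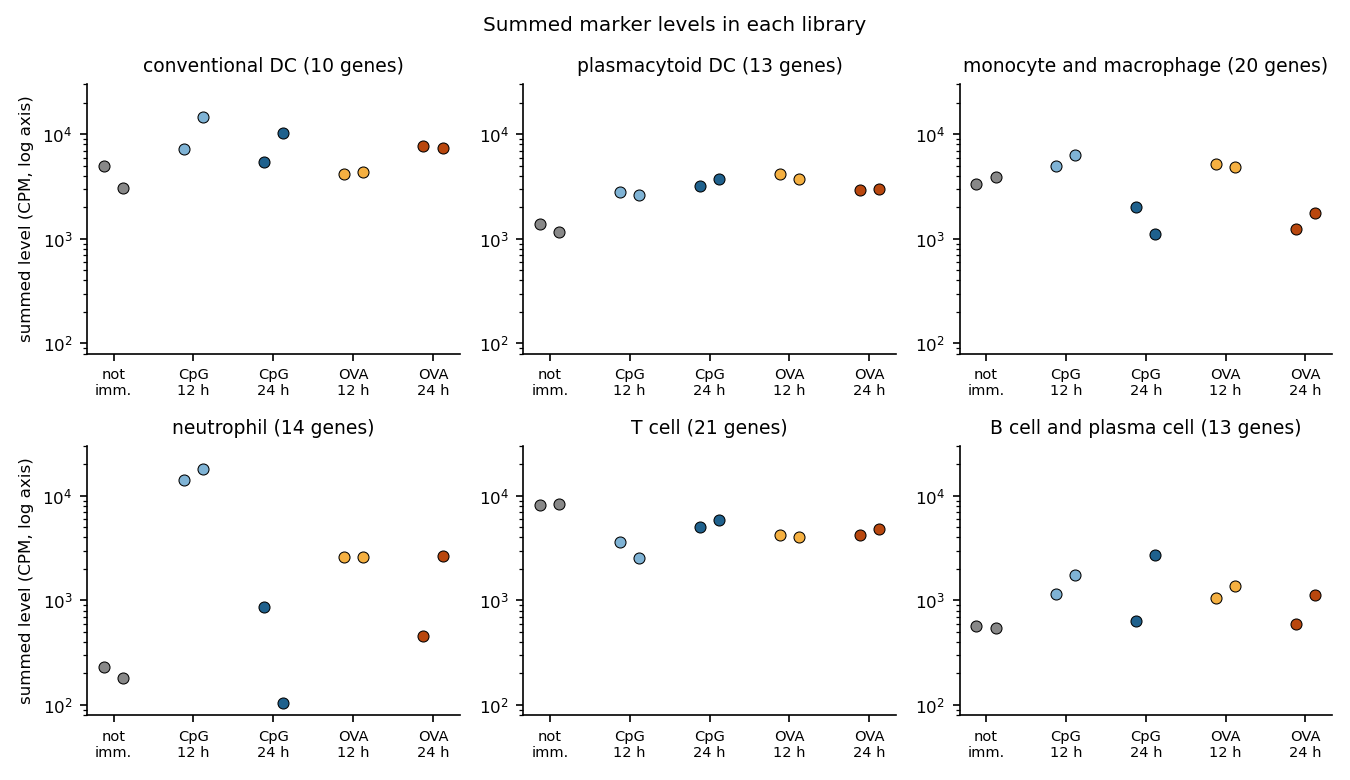
Summed level of the marker genes of 6 cell types in each library of the time course (CPM, logarithmic axis), with 1 point per library and the 2 libraries of a group side by side. The monocyte and macrophage sum lay at 5182 and 4926 CPM at 12 h after OVA-CpG particles and at 1245 and 1778 CPM at 24 h, while the neutrophil sum of the 24 h libraries lay at 454 and 2649 CPM.

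Between 12 h and 24 h the RNA of the sorted cells changed in both directions. Of 9428 genes tested with edgeR's quasi-likelihood test, 474 rose (5.03%) and 365 fell (3.87%) at a Benjamini-Hochberg adjusted p under 0.05, so that 8.9% of all genes tested were called. At an unadjusted p under 0.05 edgeR gave 1107 higher and 1031 lower of the 9428, the background for such counts below. The median log2 change over all genes tested was 0.01. The libraries of the 2 times did not overlap in any called gene, and they did not overlap in 51.7% of all genes tested, so a lack of overlap in a called gene adds nothing to its call. Changes of at least 2-fold made up 371 of the rises and 258 of the falls, and 141 rises and 116 falls were at least 4-fold. When OVA 12 h replicate 1, OVA 12 h replicate 2, OVA 24 h replicate 1 or OVA 24 h replicate 2 was left out, edgeR called 207, 221, 151 or 373 genes higher and 162, 199, 142 or 190 lower, and DESeq2 on all libraries called 295 and 254.

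Genes of DC maturation and migration rose together. Of 30 genes in this list, 22 were called higher and none lower by edgeR, with 26 higher and none lower at an unadjusted p under 0.05, and DESeq2 called 19 higher and none lower. All 30 had a positive change, with a median log2 change of 1.60. The chemokine receptor Ccr7, which guides DC into and within the T cell zone, stood at 292 and 293 CPM at 12 h and at 1794 and 1318 CPM at 24 h. The 12 h libraries lay within the range of the non-immunized ones (347 and 287 CPM) and both 24 h libraries lay above every other library of the time course. T cell markers summed to 8088 and 8389 CPM in the non-immunized libraries, against 4196 and 4043 CPM at 12 h after OVA-CpG particles. Their part in the levels of Ccr7 was not tested. The log2 change of Ccr7 was 2.41 ± 0.22 (SE; adjusted p = 7.7e-06, edgeR). Fscn1, which bundles actin in the long processes of mature DC, went from 247 and 173 to 1403 and 1179 CPM, a log2 change of 2.60 ± 0.35 (adjusted p = 0.000185, edgeR). Its 12 h levels were already above those without immunization (94.6 and 35.9 CPM).

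The same step was seen in less familiar members of the list. Serpinb6b, an intracellular serine protease inhibitor, rose from 76.5 and 38.2 to 462 and 395 CPM (log2 change 2.84 ± 0.27, adjusted p = 1.08e-05, edgeR). Tmem123, a membrane mucin, rose from 608 and 439 to 2665 and 2301 CPM and Socs2, which dampens cytokine receptor signals, from 134 and 114 to 701 and 512 CPM, with log2 changes of 2.23 and 2.27. Cd83, a surface marker of mature DC that stabilizes MHC class II at the membrane, went from 66.7 and 99.5 to 253 and 232 CPM (log2 change 1.56 ± 0.25, adjusted p = 0.000696, edgeR). The number of called maturation genes lay between 17 and 20 when any 1 of the 4 libraries was left out.

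**Figure D2:**
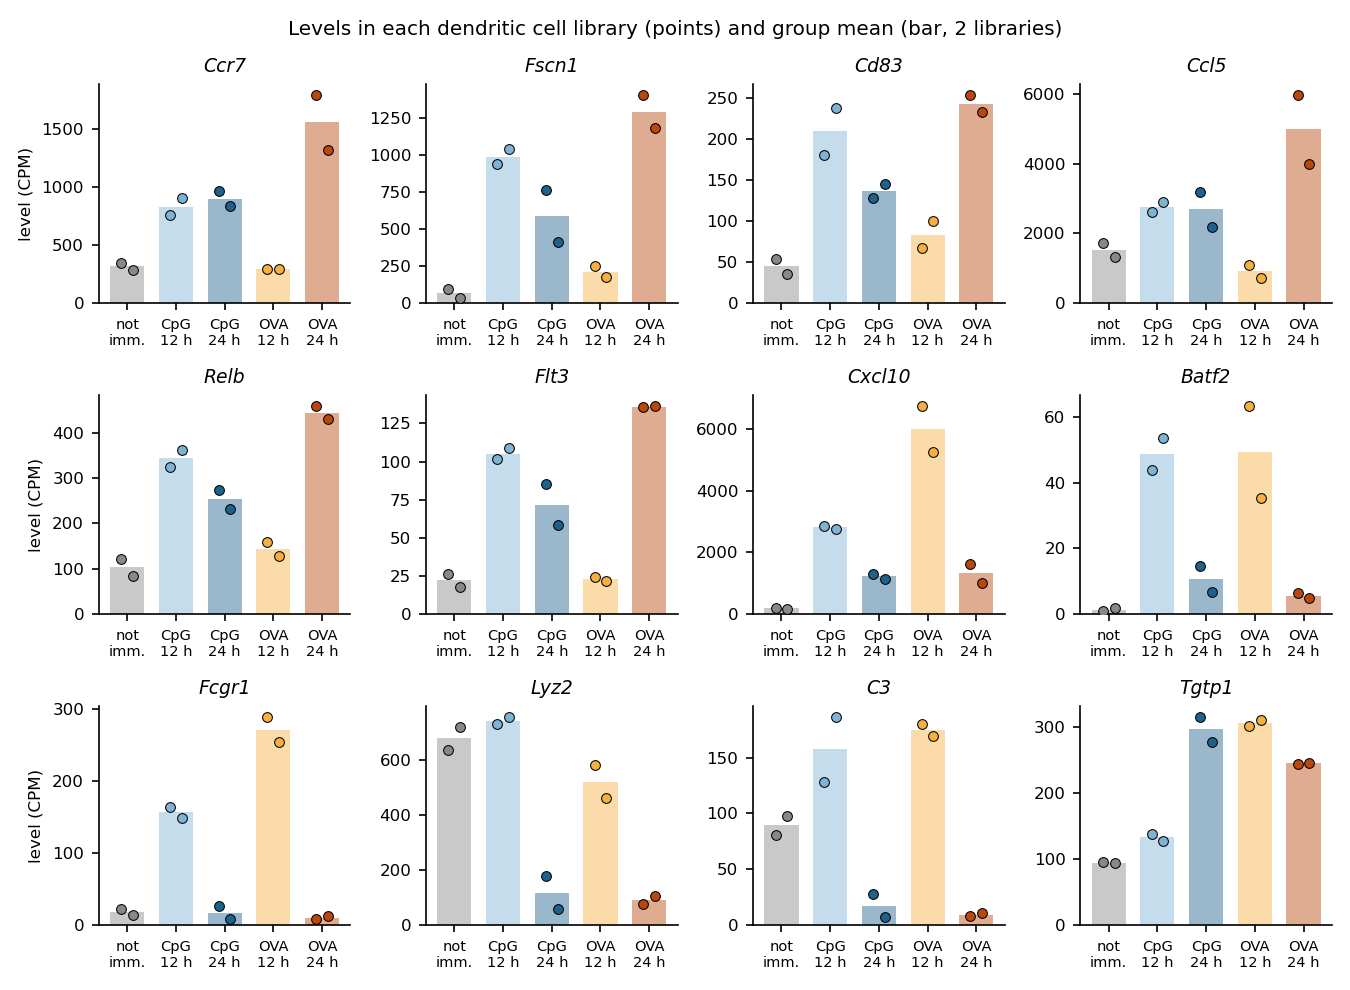
Level of 12 genes (CPM, linear axes from 0) in each library of the 5 groups, with points for libraries and bars for the mean of 2 libraries. Ccr7, Fscn1, Cd83, Ccl5, Relb and Flt3 were higher in both OVA 24 h libraries than in both OVA 12 h libraries, and Cxcl10, Batf2, Fcgr1, Lyz2 and C3 were lower.

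Some genes of cell shape were among those that rose. Of 18 tested genes of actin and cell motility 9 had a positive and 9 a negative change (median log2 change 0.19). At an unadjusted p under 0.05 edgeR gave 8 higher and 7 lower, beside 1107 and 1031 among all 9428 genes tested. At an adjusted p under 0.05, 1 was called lower and 6 were called higher. Beside Fscn1 these included Marcksl1, which links actin to the membrane, at 123 and 72.2 CPM at 12 h and 381 and 299.6 CPM at 24 h, and the tubulin Tubb2a, at 52.9 and 40.9 CPM at 12 h and 184 and 167 CPM at 24 h. Their log2 changes were 1.76 ± 0.27 and 1.87 ± 0.22 (adjusted p = 0.00057 and 7.09e-05, edgeR).

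The NF-kB genes did not move as a block. NF-kB acts through a classical arm, with Rela and Nfkb1, and a slower alternative arm, with Relb and Nfkb2. Of 20 tested genes for subunits and feedback regulators 7 were called higher and 2 lower, with a median log2 change of 0.41. Relb went from 158 and 128 to 459 and 430.0 CPM (log2 change 1.62 ± 0.22, adjusted p = 0.000186, edgeR). Traf1, an adaptor of TNF receptor family signalling, went from 208 and 168 to 611 and 530.3 CPM (log2 change 1.59 ± 0.20, adjusted p = 0.000145, edgeR). The other higher calls were Rel, Birc2, Birc3, Map3k14 (the kinase of the alternative arm) and Bcl2a1b, whose family of near-identical copies makes its count uncertain. The lower calls were Nfkbiz and Tnfaip2, and Tnfaip2, a gene that TNF induces, fell from 153 and 192 to 43.5 and 41.1 CPM (log2 change -2.03 ± 0.28, adjusted p = 0.000225, edgeR). The count of 7 higher became 4 without OVA 12 h replicate 2 or 3 without OVA 24 h replicate 1.

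Of 22 regulators of cell death edgeR called 7 higher and none lower (2 lower at an unadjusted p under 0.05; DESeq2 called 6 higher and none lower), with a median log2 change of 0.54. Members that oppose death and members that promote it were both among them. The BH3-only protein Pmaip1, which promotes apoptosis, went from 22.8 and 10.9 to 93.4 and 73.7 CPM (log2 change 2.21 ± 0.37, adjusted p = 0.00112, edgeR). Birc2, an inhibitor of apoptosis protein that also restrains the alternative NF-kB arm, went from 128 and 125 to 322 and 289 CPM (log2 change 1.26 ± 0.21, adjusted p = 0.000932, edgeR). The count was 2 when OVA 24 h replicate 1 was left out and 4 when OVA 12 h replicate 1 or OVA 12 h replicate 2 was.

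Most ligands through which DC costimulate T cells were not called. Of 8 tested costimulatory ligands none was called higher by edgeR or DESeq2 (3 at an unadjusted p under 0.05) and 1, Tnfsf14, was called lower. Changes were positive in 6 and negative in 2, with a median log2 change of 0.49, and a gene that was not called may still have changed. Cd86 was at 64.3 and 31.3 CPM at 12 h and 98.5 and 73.7 CPM at 24 h. Its log2 change of 0.78 ± 0.33 had an adjusted p of 0.169 (edgeR). Cd40, the receptor for T cell help, was at 230.3 and 195 CPM at 12 h and 345 and 237 CPM at 24 h (log2 change 0.44 ± 0.26, adjusted p = 0.339, edgeR), with both times above the non-immunized libraries at 60.3 and 34.1 CPM. Cd80 was at 8.14 and 4.09 CPM at 12 h and 17.9 and 14.5 CPM at 24 h, and a change of this size was not detectable at this depth (log2 change 1.29 ± 0.81, adjusted p = 0.383, edgeR). Of 7 tested inhibitory ligands 2 were called higher, Cd200 and Pvr, and 1 lower, Lgals9. The level of Cd274, which encodes PD-L1, was 253 and 274 CPM at 12 h and 296 and 234 CPM at 24 h, and the 2 times overlapped. Pvr, a ligand of the receptors Cd226 and Tigit, rose from 41.5 and 25.9 to 111 and 89.4 CPM (log2 change 1.51 ± 0.26, adjusted p = 0.00158, edgeR).

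Among 10 tested cytokine genes 1 rose and 1 fell. Il12b, the p40 chain of interleukin-12 and interleukin-23, was at 0.814 and 5.45 CPM at 12 h and 90.8 and 62.8 CPM at 24 h, a log2 change of 4.81 ± 0.89 (adjusted p = 0.00235, edgeR). Both 24 h libraries were above both non-immunized ones (3.26 and 10.8 CPM). The 12 h level rested on few counts, and without OVA 12 h replicate 1 the log2 change was 3.76 and no longer passed the test (adjusted p = 0.0841, edgeR). Il1rn, the natural antagonist of the interleukin-1 receptor, fell from 117 and 140.4 to 30.7 and 15.7 CPM (log2 change -2.48 ± 0.35, adjusted p = 0.000308, edgeR). Il15, which sustains memory T cells and NK cells, was at 114 and 77.7 CPM at 12 h and 161 and 126 CPM at 24 h and did not pass the test (log2 change 0.55 ± 0.29, adjusted p = 0.281, edgeR).

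Chemokines split into 3 of 14 that rose and 5 that fell by edgeR, while DESeq2 called 2 higher and 4 lower. Those that rose can draw T cells to DC, as can the ligands of Cxcr3 among those that fell. Ccl5, a chemokine that attracts T cells and monocytes, went from 1103 and 721 to 5984 and 3997 CPM (log2 change 2.45 ± 0.28, adjusted p = 4.11e-05, edgeR), and Cxcl16, the ligand of Cxcr6, from 96.9 and 58.6 to 572 and 429 CPM (log2 change 2.65 ± 0.33, adjusted p = 0.000113, edgeR). The third was Ccl22, a ligand of Ccr4, which DESeq2 did not call (log2 change 1.34, adjusted p = 0.283). Its log2 change in edgeR ran from 0.977 to 1.84 when 1 of the OVA libraries was left out. Ccl5 at 12 h lay below the non-immunized libraries (1715 and 1312 CPM) and at 24 h above them. The part of T cells in the level of Ccl5 was not tested. The chemokines that fell were Ccl2, Ccl12, Cxcl9, Cxcl10 and Cxcl11, of which DESeq2 did not call Ccl12 (log2 change -4.38, adjusted p = 0.223). Ccl2, which recruits monocytes, had 107 and 72.2 CPM at 12 h and no count in either library at 24 h, which made it at least 50.6-fold lower against a floor of 3 counts over the group, a floor that covers counting error only. Of the interferon-induced ligands of Cxcr3, Cxcl10 went from 6748 and 5252 to 1631 and 1017 CPM (log2 change -2.18 ± 0.24, adjusted p = 3.61e-05, edgeR) and stayed above the non-immunized level of 202 and 161 CPM at both times. Cxcl9 went from 233 and 334 to 98.5 and 43.5 CPM (adjusted p = 0.00381, edgeR), and without OVA 24 h replicate 2 its log2 change was -1.47 (adjusted p = 0.0562, edgeR).

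Receptors for chemoattractants changed in both directions. Ccr7 rose as given above, and so did Cxcr4, the receptor of Cxcl12, from 21.2 and 35.4 to 116 and 88.2 CPM (log2 change 1.90 ± 0.31, adjusted p = 0.000976, edgeR). Fpr2, a formyl peptide receptor, fell from 76.5 and 61.3 to 6.4 and 12.1 CPM (log2 change -2.90 ± 0.38, adjusted p = 0.000169, edgeR). In all, 2 of 16 tested chemoattractant receptors were called higher and 3 lower, Ccr2 among them, and without a filter on low counts 5 were lower.

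Markers of conventional DC were called higher in 4 of 9 cases and lower in none by edgeR, with no gene lower at an unadjusted p under 0.05, and DESeq2 called 1. The receptor tyrosine kinase Flt3, which DC precursors and DC depend on, went from 24.4 and 21.8 to 136 and 136 CPM (log2 change 2.52 ± 0.27, adjusted p = 2.94e-05, edgeR). The other 3 were H2-Aa, H2-Eb1 and Dpp4, and the count was 2 or 1 when any 1 library was left out. Batf3, a transcription factor of type 1 conventional DC that mature DC also express, went from 73.3 and 36.8 to 342 and 223 CPM (log2 change 2.30 ± 0.34, adjusted p = 0.000384, edgeR). Of 13 type 1 markers it was called higher and Naaa lower. The median change of the type 1 markers was -0.03 and that of 7 type 2 markers was 0.14, of which Itgam and Il1r2 were called lower.

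Of 14 genes for presentation on MHC class II 8 had a positive and 6 a negative change, with a median log2 change of 0.23. By edgeR 4 were called higher, H2-Aa, H2-Eb1, Lgmn and Ifi30, and 1 lower, March1. H2-Aa and H2-Eb1 also stand in the conventional DC list. DESeq2 did not call March1 (log2 change -1.72, adjusted p = 0.0502). The 4 higher became 0 when OVA 12 h replicate 1, OVA 12 h replicate 2 or OVA 24 h replicate 1 was left out, 1 when OVA 24 h replicate 2 was, and 1 with DESeq2. H2-Aa, an MHC class II chain, was at 878 and 981 CPM at 12 h and 2254 and 2236 CPM at 24 h (log2 change 1.26 ± 0.35, adjusted p = 0.0318, edgeR), and its adjusted p was 0.217 without OVA 12 h replicate 1. Class I genes had a median change of -0.03, with no gene of 20 called higher by edgeR or DESeq2 (2 at an unadjusted p under 0.05) and 1, Calr, lower. Among 22 lysosomal genes 4 rose and 6 fell. Cathepsin H (Ctsh) went from 225 and 209.9 to 453 and 492 CPM and cathepsin C (Ctsc) from 453 and 388 to 168 and 175 CPM, with log2 changes of 1.10 ± 0.20 and -1.31 ± 0.19 (adjusted p = 0.00207 and 0.000326, edgeR). Without OVA 12 h replicate 1 the lower count was 1, and without OVA 12 h replicate 2 or OVA 24 h replicate 1 the higher count was 1.

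Most interferon-response genes were lower at 24 h, by amounts that few passed the test with. Of 35 genes that type I interferon induces, 33 had a negative change, with a median log2 change of -0.43, and 5 were called lower and 1 higher. Called lower were Cmpk2, Ifih1, Ifit2, Zbp1 and Ifi27l2a, and called higher was Ifi44. The lower count was 0, 2, 1 or 0 when OVA 12 h replicate 1, OVA 12 h replicate 2, OVA 24 h replicate 1 or OVA 24 h replicate 2 was left out. It was 11 without a filter on low counts, 8 with the replicate block and 9 in a model of the 4 OVA libraries alone. The summed level of the list was 29782 and 26266 CPM at 12 h and 21209 and 19212 CPM at 24 h, against 5456 and 4055 CPM without immunization. Both 24 h sums lay below both 12 h sums and above both non-immunized ones.

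Of 22 interferon-gamma-induced genes 18 had a negative change, with a median of -0.30, 5 called lower and none higher (edgeR, with none at an unadjusted p under 0.05; DESeq2 also called none higher). The lower calls were Cxcl9, Cxcl10, Socs1, Serpina3g and Batf2, and their count was 3 when OVA 12 h replicate 1 was left out and 2 when OVA 24 h replicate 2 was. Batf2, a transcription factor of the AP-1 family that interferons induce, fell from 63.5 and 35.4 to 6.4 and 4.83 CPM (log2 change -3.16 ± 0.49, adjusted p = 0.00057, edgeR). Tgtp1, an interferon-gamma-induced GTPase, was at 301 and 311 CPM at 12 h and 244 and 245 CPM at 24 h (log2 change -0.33 ± 0.18, adjusted p = 0.279, edgeR), lower in both 24 h libraries and well above the non-immunized 95.4 and 93.4 CPM. Reads of Tgtp1 and of its near-identical neighbour Tgtp2 may have been divided between them in counting. Of 8 interferon regulatory factors edgeR and DESeq2 called none (edgeR, 1 higher and 2 lower at an unadjusted p under 0.05).

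**Figure D3:**
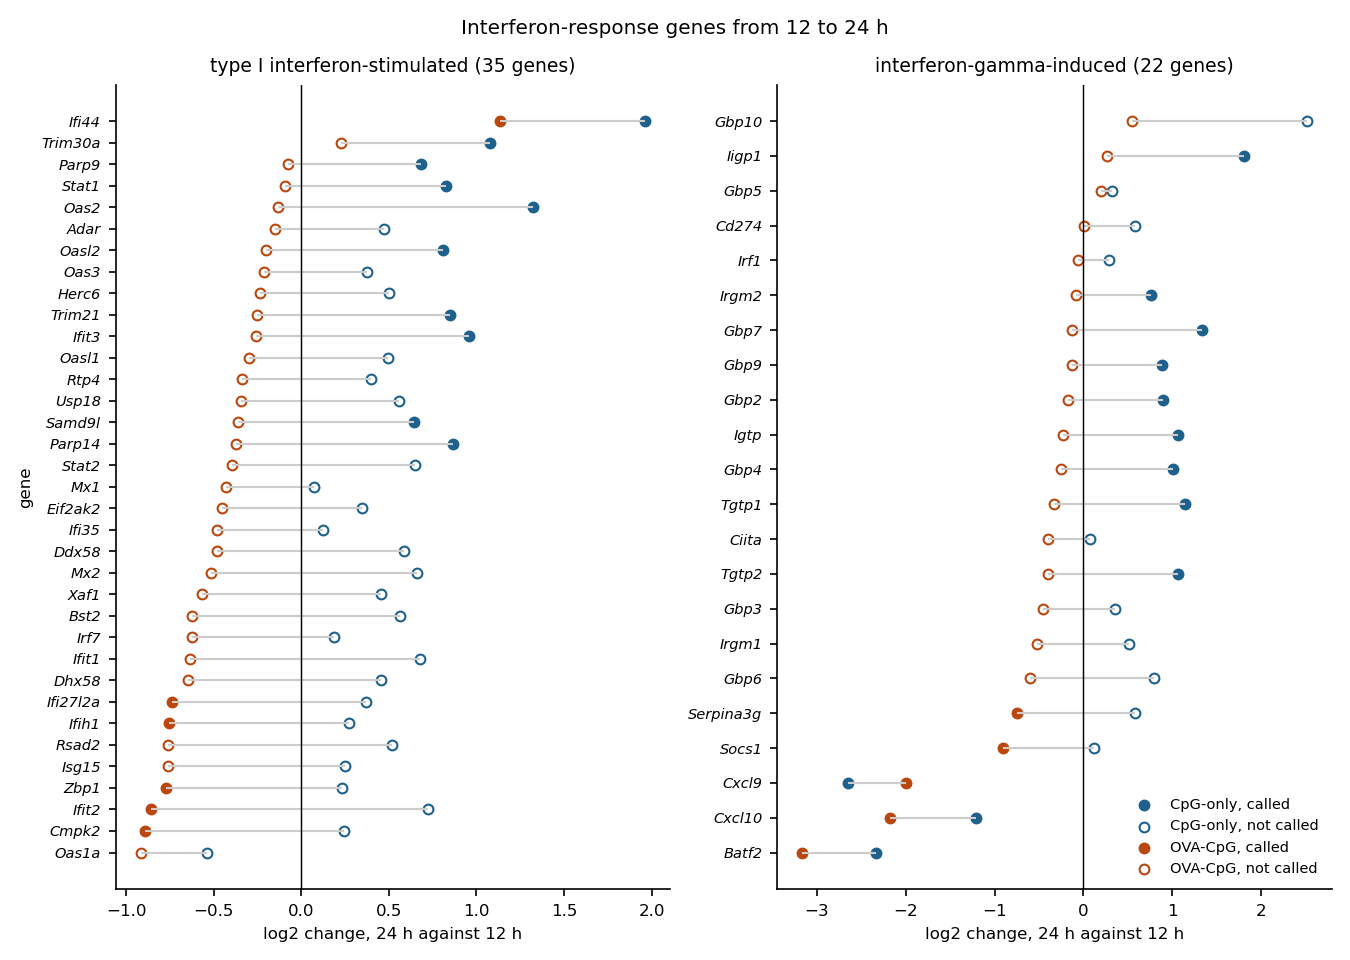
Log2 change from 12 to 24 h of each tested gene of the type I interferon list (35 genes, left) and of the interferon-gamma list (22 genes, right), after OVA-CpG particles and after CpG-only particles, with filled points where edgeR called the change. With OVA-CpG particles 33 of 35 and 18 of 22 genes lie below 0, while the medians with CpG-only particles were 0.52 and 0.68.

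Promoters of 3 genes that are induced through interferon or lie on the CpG pathway are shown for the elements they hold near the start site. The sequences are the 250 bases before the RefSeq start site (GRCm38.p6, the build of that table and not of the count files), on the strand of the gene, 5′ to 3′. Capitals mark an interferon-stimulated response element-like match (GAAA, any 2 bases, GAAA), a match to the NF-kB consensus, or a TATA box (TATAAA), on either strand. Overlapping matches run together: in Cxcl10 the first stretch is the interferon element and the other two are NF-kB matches, and in Myd88 the first stretch holds TATA boxes on both strands and the other the interferon element.
Cxcl10 (chr5:92348890-92349139, minus strand): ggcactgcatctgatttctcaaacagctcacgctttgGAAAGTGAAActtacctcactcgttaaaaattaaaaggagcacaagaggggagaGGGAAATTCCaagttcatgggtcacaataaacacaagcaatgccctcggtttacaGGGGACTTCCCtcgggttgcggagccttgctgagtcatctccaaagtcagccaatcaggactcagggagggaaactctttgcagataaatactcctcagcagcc
Tgtp1 (chr11:48992247-48992496, minus strand): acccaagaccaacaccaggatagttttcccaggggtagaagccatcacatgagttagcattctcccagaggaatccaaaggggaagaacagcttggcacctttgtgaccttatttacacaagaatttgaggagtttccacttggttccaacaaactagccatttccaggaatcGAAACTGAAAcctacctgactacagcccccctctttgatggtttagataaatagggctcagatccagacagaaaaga
Myd88 (chr9:119340019-119340268, minus strand): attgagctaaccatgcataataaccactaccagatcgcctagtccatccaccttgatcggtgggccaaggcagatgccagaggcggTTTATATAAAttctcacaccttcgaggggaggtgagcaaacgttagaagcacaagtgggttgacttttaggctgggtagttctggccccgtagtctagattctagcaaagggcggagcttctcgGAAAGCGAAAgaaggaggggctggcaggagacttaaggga
The element lay 213 to 204 bases before the start site in Cxcl10, 77 to 68 in Tgtp1 and 40 to 31 in Myd88, and Cxcl10 and Myd88 were called lower while Tgtp1 was not. RefSeq promoters were matched for 7299 of the 9428 genes tested. The element stood in 3.01% of these promoters, in 6.34% of 268 promoters of genes called lower, in 3.14% of 350 promoters of genes called higher and in 37.5% of 24 promoters of the type I interferon list. The NF-kB consensus stood in 8.82% of all, 9.70% of lower and 10.9% of higher promoters, and the TATA box in 5.89%, 7.46% and 5.43%. A match is a description of the letters, not evidence of binding.

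Most genes of uptake and complement fell. All 14 tested phagocytic, Fc and scavenger receptors had a negative change, with a median log2 change of -2.12, and 10 were called lower and none higher (edgeR; none higher at an unadjusted p under 0.05 and none by DESeq2). Fcgr1, the high-affinity receptor for IgG, went from 289 and 253 to 7.68 and 12.1 CPM (log2 change -4.78 ± 0.38, adjusted p = 4.71e-06, edgeR). The scavenger receptor Msr1 went from 92.8 and 84.5 to 3.84 and 0 CPM (log2 change -5.49 ± 0.53, adjusted p = 1.17e-05, edgeR) and Cd68, a glycoprotein of phagocyte lysosomes, from 191 and 124 to 35.8 and 23 CPM (log2 change -2.45 ± 0.32, adjusted p = 0.000164, edgeR). Fcgr1 in both 24 h libraries was below its non-immunized level (22.8 and 13.5 CPM). Of 6 tested complement genes 5 fell, with a median of -2.96. C3, the central component, went from 179.9 and 169 to 7.68 and 10.9 CPM (log2 change -4.23 ± 0.42, adjusted p = 1.65e-05, edgeR). Cfb and Cfp, of the alternative pathway, went from 228 and 199 to 51.2 and 26.6 CPM and from 229 and 172 to 21.7 and 36.2 CPM, with log2 changes of -2.47 and -2.81.

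Pattern recognition receptors and adaptors were called lower in 5 of 17 cases and higher in none (edgeR; 1 higher at an unadjusted p under 0.05, none by DESeq2), with a median of -1.26, and DESeq2 called 3 lower. The lower calls were Cd14, Myd88, Clec7a, Clec4e and Nod1. Myd88, the adaptor through which Toll-like receptor 9 signals, went from 310.1 and 275 to 90.8 and 121 CPM (log2 change -1.49 ± 0.19, adjusted p = 0.000145, edgeR), near its non-immunized level of 117 and 117 CPM. Clec4e, the receptor Mincle for mycobacterial glycolipid and for damaged cells, went from 90.3 and 85.9 to 7.68 and 1.21 CPM (log2 change -4.31 ± 0.49, adjusted p = 5.13e-05, edgeR). The lower count was 2 without OVA 24 h replicate 1, 3 without OVA 12 h replicate 1 or OVA 12 h replicate 2, and 9 without a filter on low counts. Among secreted proteins the acute-phase protein Saa3 fell from 334 and 369 to 7.68 and 6.04 CPM (log2 change -5.67 ± 0.34, adjusted p = 1.78e-07, edgeR), and fibronectin (Fn1) from 296 and 315 to 6.4 and 7.25 CPM (log2 change -5.47 ± 0.55, adjusted p = 1.71e-05, edgeR).

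Markers of monocytes and macrophages moved with these groups. All 16 tested markers had a negative change, with a median of -2.64, and 13 were called lower (8 without OVA 24 h replicate 1). Lyz2, the lysozyme of myeloid cells, went from 583 and 461 to 75.5 and 106 CPM (log2 change -2.54 ± 0.35, adjusted p = 0.000214, edgeR), and reads of Lyz2 and of its close copy Lyz1 may have been divided in counting. Chil3, a chitinase-like protein of monocytes and macrophages, went from 879.9 and 826 to 47.3 and 119.6 CPM (log2 change -3.38 ± 0.48, adjusted p = 0.000315, edgeR). The sum of 20 markers was 5182 and 4926 CPM at 12 h and 1245 and 1778 CPM at 24 h, below the 3348 and 3936 CPM without immunization, and none of the 20 was at 0 in all 4 OVA libraries. Fcgr1, Cd14, C1qb and Ccr2 stand in this list and in a list above. The part of the monocyte markers in the falls of phagocytic, complement and pattern recognition genes was not tested. Itgam, a marker of type 2 conventional DC and of monocytes, fell from 189.7 and 144 to 40.9 and 56.8 CPM (log2 change -1.80 ± 0.32, adjusted p = 0.0017, edgeR).

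Neutrophil markers did not move together. With OVA-CpG particles 3 of 10 were called lower, Mmp8, Csf3r and Lcn2. Mmp8, neutrophil collagenase, went from 112 and 125 to 0 and 18.1 CPM (log2 change -3.68 ± 0.54, adjusted p = 0.000389, edgeR). The granule proteins Camp, Ltf and Ngp differed between the 24 h libraries more than between the times. Ngp was at 201 and 95.4 CPM at 12 h and at 37.1 and 321 CPM at 24 h, so that the 24 h libraries lay on either side of both 12 h ones. The count of 3 lower was 5 when OVA 24 h replicate 2 was left out and 1 when OVA 12 h replicate 1 or OVA 24 h replicate 1 was. For Ngp the log2 change was 0.20 ± 0.55 (adjusted p = 0.878, edgeR), and -1.98 without OVA 24 h replicate 2.

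Some of the largest rises lay outside these lists. The metallothioneins, small proteins that bind zinc and copper, rose together. Mt2 went from 0.814 and 4.09 to 104 and 41.1 CPM and Mt1 from 9.77 and 15 to 180.4 and 135 CPM, with log2 changes of 5.04 ± 0.69 and 3.71 ± 0.33 (adjusted p = 0.000233 and 7.7e-06, edgeR). Efna2, a ligand of Eph receptors, went from 3.26 and 0 to 60.1 and 33.8 CPM, the kinase Nek6, which acts in mitosis, from 5.7 and 4.09 to 48.6 and 76.1 CPM and Cacna1s, a calcium channel subunit best known from skeletal muscle, from 4.88 and 10.9 to 98.5 and 74.9 CPM. Their log2 changes were 4.46, 3.57 and 3.54. The 12 h levels of Mt2 and Efna2 rested on few counts.

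Metabolic genes were mixed. Pfkfb3, which makes the activator of the glycolytic enzyme phosphofructokinase, went from 96 and 102 to 682 and 689.8 CPM (log2 change 2.78 ± 0.23, adjusted p = 5.98e-06, edgeR). Of 17 glycolysis genes it alone was called higher, Eno1 and Pkm were called lower, and 15 had a negative change. Pyruvate kinase (Pkm) went from 781 and 711 to 402 and 350.3 CPM (adjusted p = 0.00234, edgeR). The fatty acid carrier Fabp5 went from 26.9 and 15 to 224 and 134 CPM (log2 change 3.02 ± 0.43, adjusted p = 0.000306, edgeR). Oxidative phosphorylation genes were called lower in 6 of 35 cases, with a median of -0.34, a count that was 1 or 2 when any 1 library was left out and 3 with DESeq2. Cholesterol synthesis genes had a median of 0.56, and none of 17 was called by edgeR or DESeq2 (4 at an unadjusted p under 0.05, all higher).

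Of 16 tested genes of the unfolded protein response edgeR called 6 lower and 1 higher, around a median of -0.62. Xbp1, a transcription factor of this response that DC also need, went from 349 and 320.2 to 148 and 149 CPM (log2 change -1.19 ± 0.20, adjusted p = 0.000932, edgeR). The count of 6 lower was 1, 3 or 2 when OVA 12 h replicate 2, OVA 24 h replicate 1 or OVA 24 h replicate 2 was left out. Socs3, which limits signals of interleukin-6 and related cytokines, went from 229 and 203 to 88.3 and 83.4 CPM (log2 change -1.35 ± 0.24, adjusted p = 0.00186, edgeR), and the stress-induced transcription factor Atf3 from 97.7 and 83.1 to 30.7 and 15.7 CPM (log2 change -1.98 ± 0.34, adjusted p = 0.00121, edgeR). Of 20 cell cycle genes 1, Ccnb2, which encodes cyclin B2, was called lower and none higher (edgeR; none higher at an unadjusted p under 0.05 and none by DESeq2), at 50.5 and 43.6 CPM at 12 h and 3.84 and 4.83 CPM at 24 h.

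The same interval after CpG-only particles gives the background without OVA, and its libraries are separate from the OVA ones. CpG-only particles gave 317 genes higher (3.36%) and 402 lower (4.26%) at 24 h than at 12 h. Lower after both particles were 194 genes, 53.2% of the falls with OVA-CpG and 48.3% of those with CpG-only particles. Higher after both were 38 genes, 8.02% and 12.0%, 21 genes rose with OVA-CpG and fell with CpG-only particles, and 0 genes did the opposite. Monocyte markers had medians of -2.64 with OVA-CpG and -2.92 with CpG-only particles, and for Lyz2 the difference between the changes was 0.21 ± 0.48 (adjusted p = 0.897, edgeR). The medians were -2.12 and -2.29 for phagocytic receptors, -2.96 and -2.68 for complement and -1.26 and -1.06 for pattern recognition genes. A difference between the changes was called for 0 phagocytic, 0 complement and 1 pattern recognition gene, the latter positive.

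The test of the difference itself (the change with OVA-CpG minus the change with CpG-only particles, same model) called 254 genes with a more positive change after OVA-CpG particles (2.69%) and 65 with a more negative one (0.689%). Without CpG-only 24 h replicate 1 these counts were 496 and 248, without CpG-only 12 h replicate 2 they were 139 and 16, and with the loss of OVA 12 h replicate 1, OVA 12 h replicate 2 or OVA 24 h replicate 1 they were 158, 137 or 143 and 18, 27 or 32. Without OVA 24 h replicate 2 the more negative ones were 23. Maturation genes made up 21 of the positive calls out of 30 tested, with a median change of 1.60 with OVA-CpG and -0.42 with CpG-only particles. Ccr7 stood at 756 and 904 CPM at 12 h and 964 and 834 CPM at 24 h after CpG-only particles, and the difference between the 2 changes was 2.30 ± 0.30 (adjusted p = 0.000395, edgeR). Fscn1 stood there at 939 and 1036 CPM at 12 h and 763 and 412 CPM at 24 h, a difference of 3.37 ± 0.47 (adjusted p = 0.000851, edgeR). In both genes both CpG-only libraries at 12 h lay above both OVA libraries at 12 h. The summed level of the 30 maturation genes was 12532 and 13648 CPM at 12 h and 12395 and 8719 CPM at 24 h after CpG-only particles against 5569 and 4568 CPM and then 22322 and 16854 CPM after OVA-CpG particles, and 4667 and 3604 CPM without immunization.

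**Figure D4:**
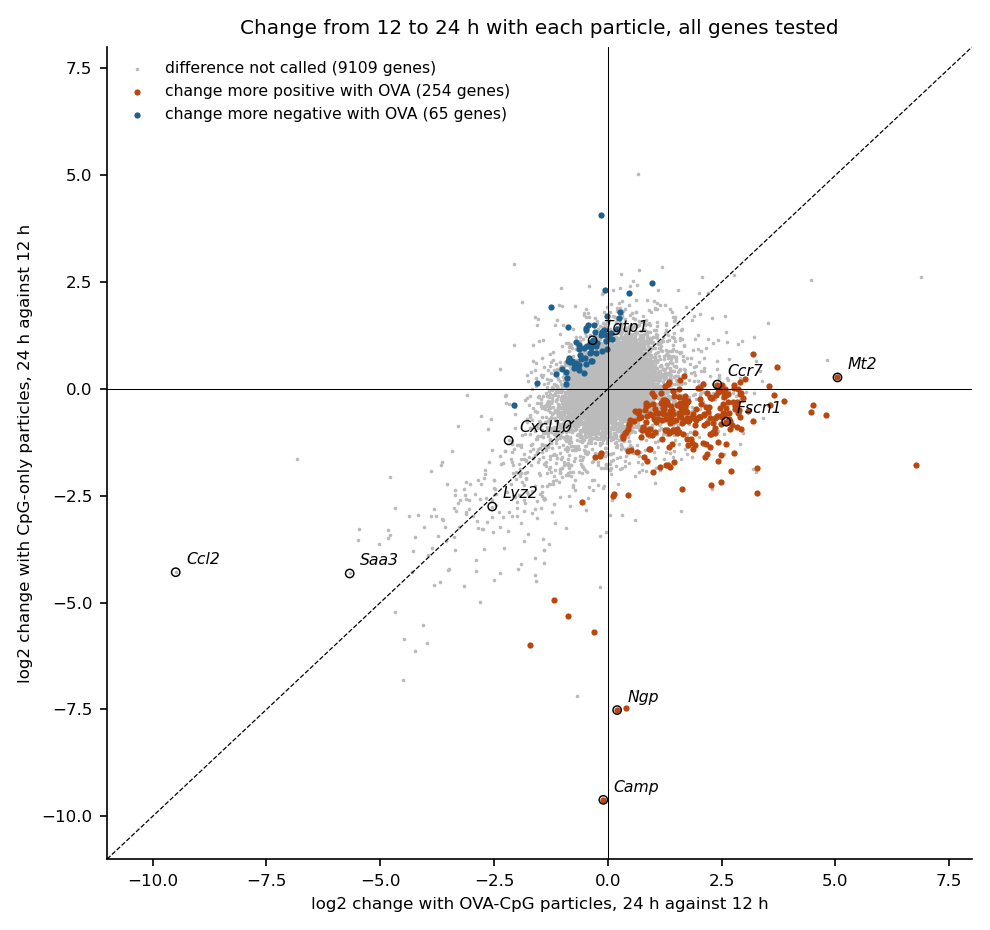
Log2 change from 12 to 24 h of all 9428 genes tested after OVA-CpG particles (horizontal) and after CpG-only particles (vertical), with genes coloured where the difference between the changes was called and a dashed line of equal change. The 254 genes with a more positive change lie below the line and the 65 with a more negative one above it, and the position of Ccl2, which had no count at 24 h after OVA-CpG particles, is a fitted value.

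Some interferon genes differed between the particles. With CpG-only particles 10 of 35 type I genes and 9 of 22 interferon-gamma-induced genes were called higher at 24 h, and the difference between particles was called negative for 7 and 10 genes of these lists and positive for none (edgeR). None of the 9428 genes tested was called lower with OVA-CpG and higher with CpG-only particles. Tgtp1 rose from 139 and 127 to 315 and 278 CPM after CpG-only particles, a difference between the changes of -1.47 ± 0.25 (adjusted p = 0.00326, edgeR). At 12 h both OVA libraries lay above both CpG-only libraries, and at 24 h both lay below. Serpina3f, a serine protease inhibitor of a family with close copies, had 151 and 134 CPM at 12 h and 116 and 95.4 CPM at 24 h with OVA-CpG particles. With CpG-only particles it had 48.5 and 55.2 CPM and then 105 and 183 CPM, a difference of -1.94 ± 0.37 (adjusted p = 0.0065, edgeR). Cxcl10 fell after both, and the difference of -0.97 ± 0.33 did not pass the test (adjusted p = 0.138, edgeR).

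Neutrophil granule genes were among the genes with the largest differences. Camp, which encodes cathelicidin, stood at 766 and 1049 CPM at 12 h and 3.27 and 0 CPM at 24 h after CpG-only particles and at 90.3 and 65.4 CPM and then 26.9 and 123 CPM after OVA-CpG particles (difference 9.52 ± 0.93, adjusted p = 8.89e-05, edgeR). Neutrophil markers summed to 14308 and 18176 CPM at 12 h and 873 and 105 CPM at 24 h after CpG-only particles, and 6 of 10 had a called difference. These markers set the CpG-only 12 h libraries apart from all others of the time course, and their part in the other differences between the particles was not tested. T cell markers summed to 3640 and 2516 CPM at 12 h and 5054 and 5933 CPM at 24 h after CpG-only particles, with 10 of 20 called higher (edgeR), against 8088 and 8389 CPM without immunization, and their part was likewise not tested.

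**Figure D5:**
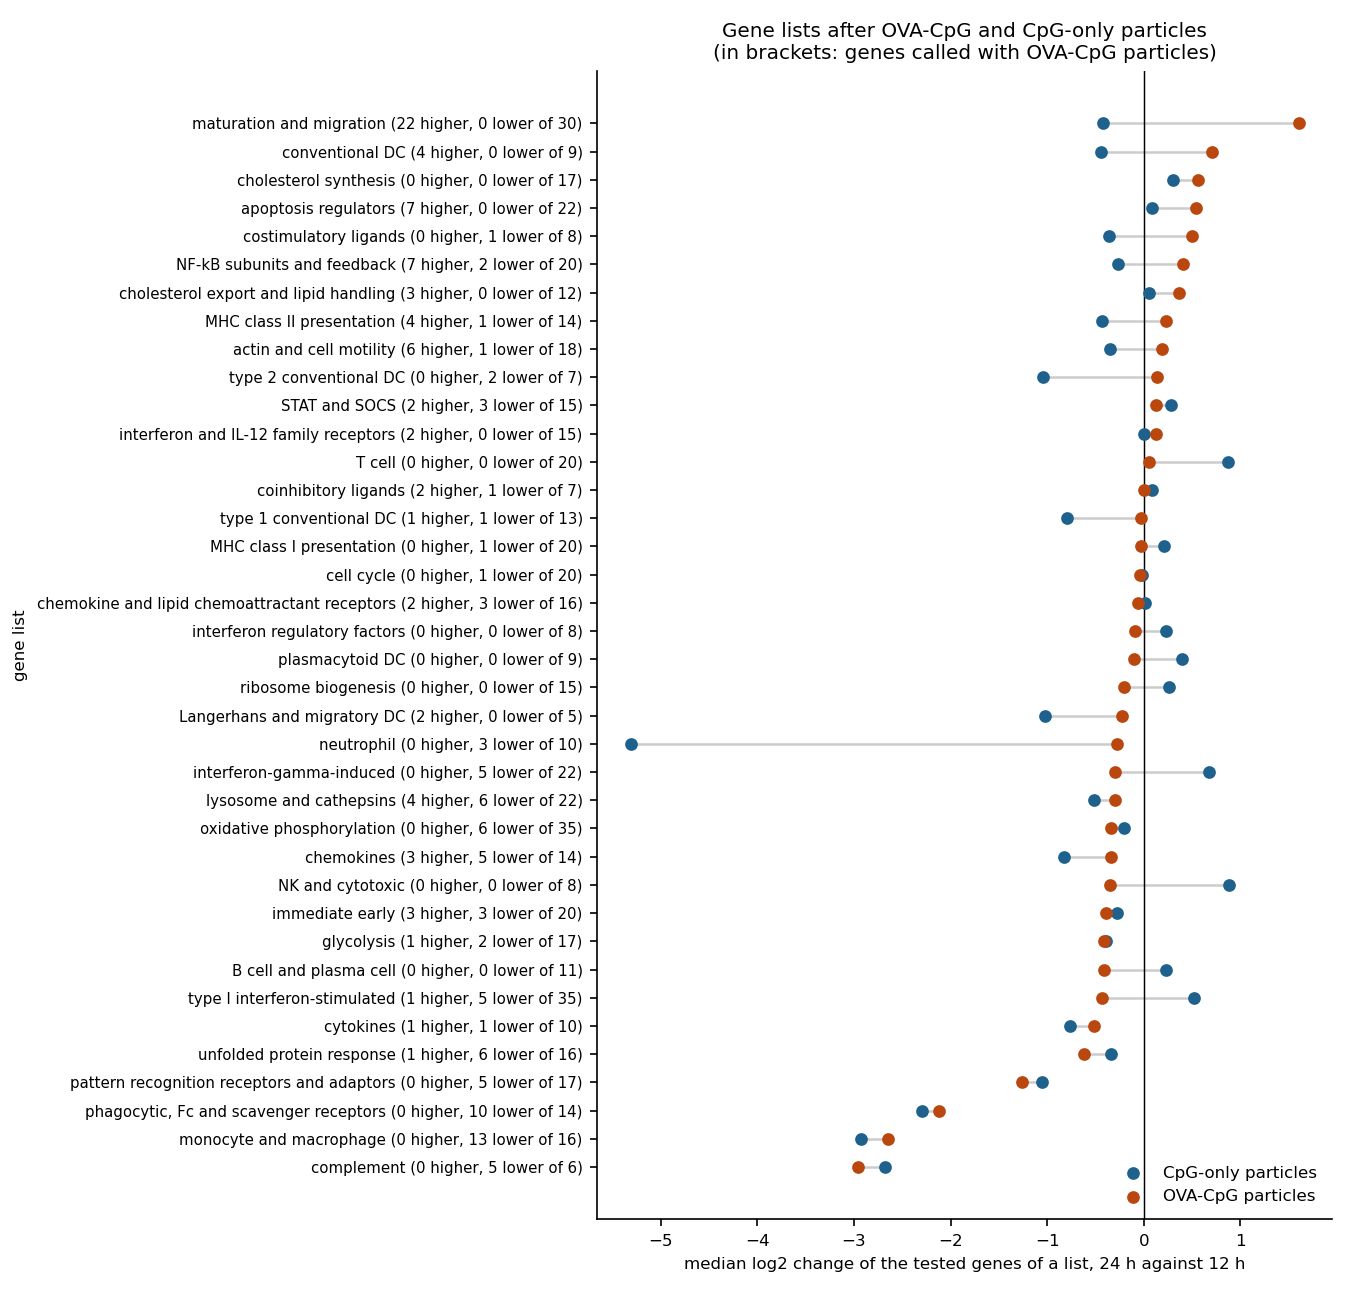
Median log2 change from 12 to 24 h over the tested genes of each list with at least 5 tested genes, after OVA-CpG particles and after CpG-only particles, with the calls after OVA-CpG particles in brackets. Maturation genes lie at 1.60 and -0.42, monocyte markers at -2.64 and -2.92, and neutrophil markers at -0.28 and -5.31.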

How the data were processed

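The deposited table of the time course holds raw counts per gene for 10 DC libraries, whose name in the labels marks them as UMI counts over exons. Its scaled values and the authors' own comparisons were not used. According to the submitters' processing notes, bcl2fastq, HISAT 0.1.6, HOMER and the mm9 build were used. Per the labels, polyA RNA was captured and amplified by in-vitro transcription.

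The table held 24421 genes. Counts were tested with edgeR 4.0.16 (TMM, filterByExpr by group, glmQLFit and glmQLFTest) with all 10 libraries in the model, since groups of 2 need a shared estimate of the spread, and Benjamini-Hochberg adjustment over 9428 genes with calls at an adjusted p under 0.05. The standard error of a log2 change was taken from its size and the F statistic. Levels are CPM of the library total. DESeq2 1.42.0 and the alternatives under the closing section were run beside it, and scripts were tested on simulated data. The tests ran in R 4.3.3, and tables and plots were made in Python 3.11.15 with matplotlib 3.10.9, numpy 2.4.6 and pandas 2.3.3. Replicates differed beyond sampling noise in each group.

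The comparison and the 40 gene lists (650 genes, 6 of them not in the table) were chosen with earlier results of these data known. Named genes follow a rule: 12 genes always followed (Fscn1, Ccr7, Lyz2, Tgtp1, Cd40, Cd80, Cd86, Cd83, Il12b, Il15, Cd274 and Cxcl10), the 12 largest rises and 12 largest falls among calls whose times did not overlap and that averaged 10 CPM or more (unnamed gene models left out), up to 4 called genes of each list by adjusted p, and the 4 largest called differences between particles each way at the same level. Not all of these 125 genes are reported here, and members of small counts were named after their values were seen. Levels of different genes were not compared.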

Additional observations from a re-analysis of the deposited data

Results flagged for a closer look

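The change from 12 to 24 h differed between OVA-CpG and CpG-only particles in 47 of the 114 genes that the text names with a result. The calls came from the test of the difference itself (edgeR, adjusted p under 0.05), with 40 positive and 7 negative. Most of the 114 genes were named for a call in the OVA libraries and some for a called difference, so the choice partly set this share. Over all 9428 genes tested 2.69% were called positive and 0.689% negative. Values are the log2 change with OVA-CpG particles minus that with CpG-only particles.

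Among the maturation and migration genes and their neighbours the difference was 2.30 for Ccr7, 3.37 for Fscn1, 2.18 for Cd83, 3.13 for Serpinb6b, 2.49 for Socs2, 2.43 for Tmem123, 2.07 for Relb and 2.00 for Traf1. It was 2.49 for Ccl5, 2.96 for Cxcl16, 2.45 for Tubb2a, 2.52 for Marcksl1, 2.55 for Pvr, 2.76 for Pmaip1, 1.19 for Birc2 and 1.81 for Ctsh. For Ltc4s, a leukotriene synthase, and Apol7c, an apolipoprotein L family member, it was 3.39 and 2.90. It was 1.58 for Map3k14, 1.26 for Birc3, 2.35 for Bcl2a1b, 3.09 for Ccl22, 2.94 for Lad1, 2.17 for Dusp1, 1.55 for Il15ra, 1.88 for Ifi30 and 1.76 for H2-Eb1. The DC genes Flt3 and Batf3 differed by 3.13 and 3.10, the metabolic genes Pfkfb3 and Fabp5 by 2.69 and 2.78, and Mt1, Mt2, Efna2, Nek6 and Cacna1s by 3.19, 4.78, 4.99, 3.96 and 3.48.

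The neutrophil granule genes differed by 9.52 for Camp, 7.87 for Ltf, 7.72 for Ngp and 4.28 for Lcn2. In Camp, Ltf and Ngp the CpG-only 12 h libraries were high and OVA 24 h replicate 2 was higher than OVA 24 h replicate 1.

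The difference was negative for the interferon-response genes Tgtp1 at -1.47, Ifit2 at -1.58, Cmpk2 at -1.14, Socs1 at -1.03 and Serpina3g at -1.33, for Serpina3f at -1.94 and for Igfbp4, an insulin-like growth factor binding protein, at -2.32. Igfbp4 stood at 118 and 74.9 CPM and 42.2 and 65.2 CPM with OVA-CpG particles and at 55.2 and 37.3 CPM and 99.7 and 153 CPM with CpG-only particles.

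Of the 47 calls 31 held under every one of 14 alternatives and 16 did not. Mt2 and Igfbp4 were not called without OVA 12 h replicate 1 (3.85, adjusted p = 0.0978, and -1.92, adjusted p = 0.0586, edgeR). Fabp5 was not called without CpG-only 12 h replicate 2, OVA 12 h replicate 2 or OVA 24 h replicate 1 (2.63, 2.48 and 2.31), and Ltc4s was not without CpG-only 12 h replicate 1 (2.79, adjusted p = 0.0745, edgeR). Birc2 was not called with DESeq2 (adjusted p = 0.0538) or without any 1 of CpG-only 12 h replicate 1, CpG-only 12 h replicate 2, OVA 12 h replicate 1, OVA 12 h replicate 2 and OVA 24 h replicate 1 (edgeR, adjusted p from 0.0645 to 0.147). The other 11 were Map3k14, Birc3, Dusp1, Il15ra, Ifi30, H2-Eb1, Lcn2, Ifit2, Cmpk2, Socs1 and Serpina3g, and each of these lost its call when at least 1 library was left out.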

How the results depend on the processing

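Of 103 genes that the text names as called between 12 and 24 h, 55 held under every one of 10 alternatives and 48 did not. Among all 125 genes under the naming rule 112 were called, of which 61 held. Of the genes described with values Il12b, Cxcl9, Nr4a3, Apol7c, H2-Aa, Ccl22, Ccl12 and March1 lost their call under some alternative. The 474 genes higher at 24 h became 295 with DESeq2, and from 151 to 373 when 1 library was left out. The 365 genes lower became 614 without a filter on low counts, and from 142 to 199 when 1 library was left out. The 254 genes with a more positive change after OVA-CpG particles became 394 without the filter and the 65 with a more negative one 200, and with 1 library left out they ran from 137 to 496 and from 16 to 248. The lone library of a group was then assumed to vary like the other groups. Ngp, with a log2 change of 0.20, reversed without OVA 24 h replicate 2 (-1.98, adjusted p = 0.021, edgeR), and ran from there to 0.996 when 1 library was left out. The correlation of deviations between libraries of the same replicate number was -0.015 between the OVA groups. The highest between any groups was 0.138, for CpG-only 24 h and OVA 24 h. With 2 libraries per group such values cannot show whether replicate numbers mark paired samples. With the replicate block edgeR called 491 genes higher and 401 lower, and 285 and 89 in the difference. Depth limits what can be seen of genes at a few CPM, such as Cd80. The causes of these shifts were not tested, beyond the fewer samples or the other set of genes that each alternative holds.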

Other observations

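Groups not described above differed in how many members were called with OVA-CpG particles, beside 8.9% called among all genes tested. Of 20 tested immediate early genes 3 were called higher (Nr4a3, Dusp1 and Klf6) and 3 lower (Atf3, Nr4a1 and Klf4). Nr4a3, an orphan nuclear receptor, went from 12.2 and 15 CPM at 12 h to 157 and 50.7 CPM at 24 h, a log2 change of 2.95 ± 0.53 (adjusted p = 0.00184, edgeR). It was no longer called without OVA 12 h replicate 1 (adjusted p = 0.0557) or OVA 24 h replicate 1 (adjusted p = 0.0616), and without either of these the count of 3 higher was 0. The lower count was 1 without OVA 12 h replicate 1, OVA 24 h replicate 1 or OVA 24 h replicate 2. Of 12 genes of cholesterol export and lipid handling 3 were called higher (Abcg1, Fabp5 and Apol7c), which became 1 without OVA 12 h replicate 1, OVA 12 h replicate 2 or OVA 24 h replicate 1. Apol7c went from 27.7 and 23.2 to 94.7 and 78.5 CPM (log2 change 1.73 ± 0.35, adjusted p = 0.00483, edgeR), and was not called without any 1 of these 3 libraries (adjusted p from 0.0538 to 0.076).

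Of 10 genes of Langerhans cells and migratory DC 5 were tested, 2 with a positive and 3 with a negative change (median log2 change -0.225). The 2 positive ones, Ltc4s and Lad1, were called higher. For Lad1 the log2 change was 1.92, and 1.28 without OVA 24 h replicate 1. Ltc4s, which makes leukotriene C4, went from 16.3 and 4.09 to 62.7 and 55.6 CPM (log2 change 2.37 ± 0.46, adjusted p = 0.00363, edgeR). Of 15 genes of interferon and interleukin-12 family receptors 2, Il15ra and Il21r, were called higher. Of 15 STAT and SOCS genes Stat4 and Socs2 were called higher and Socs1, Socs3 and Pim1 lower, a lower count that was 1 without OVA 24 h replicate 2. Neither edgeR nor DESeq2 called any of 9 plasmacytoid DC markers, 11 B cell and plasma cell markers, 8 NK and cytotoxic markers or 15 ribosome biogenesis genes. At an unadjusted p under 0.05 edgeR gave 5, 2, 2 and 1 of these, beside 2138 of all 9428 genes tested.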
